A study of Homo sapiens with 18 samples.

Results

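The 10 genes described here are the transcription factor gene NFE2L2, its inhibitor KEAP1, and 8 genes of the antioxidant defence: SLC7A11, GCLC, GCLM, NQO1, HMOX1, TXNRD1, SRXN1 and GPX4. They were chosen by symbol, through their Ensembl identifiers, out of 35044 genes in the count table. All 10 were found, and all 10 passed the filter on low counts, which left 18335 genes to test. RNA-seq had been run on 18 libraries of HCC1937, a human breast cancer cell line with a BRCA1 mutation, in 6 conditions of 3 libraries each. HCC1937-EV (EV below) carried an empty vector and HCC1937-OE-BRCA1 (OE below) overexpressed wild-type BRCA1. Each line was sampled at 0 h and after 12 h and 24 h of olaparib, a PARP inhibitor given at 10 µmol/L in the study. The sample labels list olaparib for every library, those of 0 h included, and call the genotype of EV WT, whereas the study describes EV as BRCA1 mutated. None of the 18 libraries was sampled at 12 h or 24 h without olaparib, so olaparib and time in culture cannot be told apart. An olaparib or treatment effect below means the change from 0 h in the same line. Each condition of BRCA1 was represented by 1 line, so BRCA1 status and any other difference between the lines cannot be told apart. In bulk RNA, fewer cells that express a gene and less of its RNA per cell cannot be told apart either.

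NRF2, the protein of NFE2L2, is a transcription factor that KEAP1 holds in the cytoplasm and hands to the proteasome. When electrophiles or oxidants modify KEAP1, NRF2 accumulates, enters the nucleus and, with small MAF proteins, binds antioxidant response elements near its target genes. Several targets feed glutathione, the main soluble thiol of the cell: SLC7A11 imports cystine, the glutamate-cysteine ligase subunits GCLC and GCLM make the first intermediate, and GPX4 spends glutathione to reduce lipid peroxides in membranes. NRF2 activity is set largely by protein stability, which transcript counts do not measure.

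The libraries held 15081973 to 17571922 counts, with a median of 16077300. BRCA1, the overexpressed gene, was at 126, 111 and 117 CPM (counts relative to the size of the library, as adjusted by TMM) in EV at 0 h, and at 166, 122 and 127 CPM in OE at 0 h. The ranges of the lines overlapped at 0 h, where the log2 fold change was 0.24 (adjusted p = 0.0654). They did not overlap at 24 h, when OE held 155 to 169 CPM against 90.9 to 99.5 CPM in EV (log2 fold change 0.77, adjusted p = 3.17e-06). The counts do not separate the mutated transcript from the introduced one. Of 6 breast epithelial markers, EPCAM, CDH1 and KRT19 had a median under 1 CPM in EV, as did KRT5, KRT14 and TP63 of 6 basal ones, whereas in OE all 12 were above it. The remaining epithelial markers were well expressed in EV, with medians of 1877 CPM for KRT8, 883.5 CPM for KRT18 and 465 CPM for KRT7. Of the remaining basal ones, EGFR was at 179 CPM, LAMB3 at 88.6 CPM and KRT17 at 3.38 CPM. EPCAM reached at most 0.0617 CPM in EV and 252 to 352 CPM in OE, and the lines differed in 72.7% of all tested genes at 0 h. Libraries also differed in how their counts followed the GC content of genes: Spearman's rho between a library's deviation from its line and GC content ran from -0.59 to 0.61. OE 0 h replicate 1 stood apart from its condition, with a rho of -0.59 against 0.30 and 0.55, and so did EV 12 h replicate 3, with 0.61 against -0.56 and -0.19. The chi-square per degree of freedom between OE 0 h replicate 1 and its 2 fellows was 35.3 and 30.9, against 16.6 between those 2, and between EV 12 h replicate 3 and its fellows it was 42.4 and 24.1, against 19.4.

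Promoter windows of RefSeq on GRCh38.p14, 300 bases long and mostly upstream of the annotated start, were found for 8 of the 10 genes, HMOX1 and SLC7A11 being without an entry, and gave 13 windows. They were searched on both strands for TGACNNNGC, the core of the antioxidant response element, and for TGACTCA, the AP-1 motif. A stretch in which the AP-1 motif is followed by GC would count for both. TGACNNNGC was present in 4 of the 13 windows, those of GCLM, KEAP1 and both starts of TXNRD1, and in 13.3% of 35116 windows of all genes. TGACTCA was in 0 of the 13 and in 4.9% of all windows. Sequence outside the windows was not searched, so a gene without a match here may still hold the element elsewhere. The matches are shown because NRF2 acts through this element. A match is a description of the letters and was not tested for binding, and a further match in TXNRD1 spans the start itself, from -8 to 0. They are printed 5′ to 3′ on the strand of the gene, with the match in capitals (a match on the other strand reads as GC, any 3 bases and GTCA), and positions are counted from the start as 0:
GCLM, chr1:93909446-93909474, minus strand, -34 to -26: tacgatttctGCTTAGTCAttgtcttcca
KEAP1, chr19:10502784-10502812, minus strand, -31 to -23: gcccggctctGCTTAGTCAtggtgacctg
KEAP1, chr19:10502807-10502835, minus strand, -54 to -46: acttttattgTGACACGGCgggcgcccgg
TXNRD1, chr12:104215670-104215698, plus strand, -99 to -91: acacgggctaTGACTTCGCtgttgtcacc
TXNRD1, chr12:104286920-104286948, plus strand, -102 to -94: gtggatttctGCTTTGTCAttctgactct

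At 24 h of olaparib, 4 of the 10 genes were called in each line by the quasi-likelihood test of edgeR, with p-values adjusted over all tested genes by Benjamini-Hochberg and a call meaning an adjusted p under 0.05. In EV, KEAP1, HMOX1 and SRXN1 rose and SLC7A11 fell. In OE, SLC7A11, GCLC, GCLM and HMOX1 rose. The background was 13.7% of all tested genes called in EV (8.62% higher and 5.12% lower) and 8.26% in OE (4.71% higher and 3.55% lower). The median log2 fold change of the 10 genes was 0.04 in EV and 0.21 in OE, beside 0.00 and 0.02 over all genes. Single libraries moved both counts. Without EV 0 h replicate 1, 1 of the 10 was called in EV beside 2.45% of all genes, and leaving out the other EV libraries gave a background of 3.76% to 11.8%. Without OE 0 h replicate 1, 6 of the 10 were called in OE beside 17.7% of all genes, TXNRD1 (0.32, adjusted p = 0.0205) and GPX4 (-0.58, adjusted p = 0.0108) being the additional ones. The background in OE was 3.42% without OE 24 h replicate 3 and 3.91% to 4.86% without any 1 of the other 4. The libraries at 24 h and 0 h did not overlap for 7 of the 10 genes in EV, where 39.8% of all genes did not, and for 5 in OE, where 23.8% did not. Among all genes called in OE at 24 h, 864 were higher and 651 lower. This split turned to 1300 higher and 1703 lower when each library's trend with GC content and transcript length was offset.

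**Figure D1:**
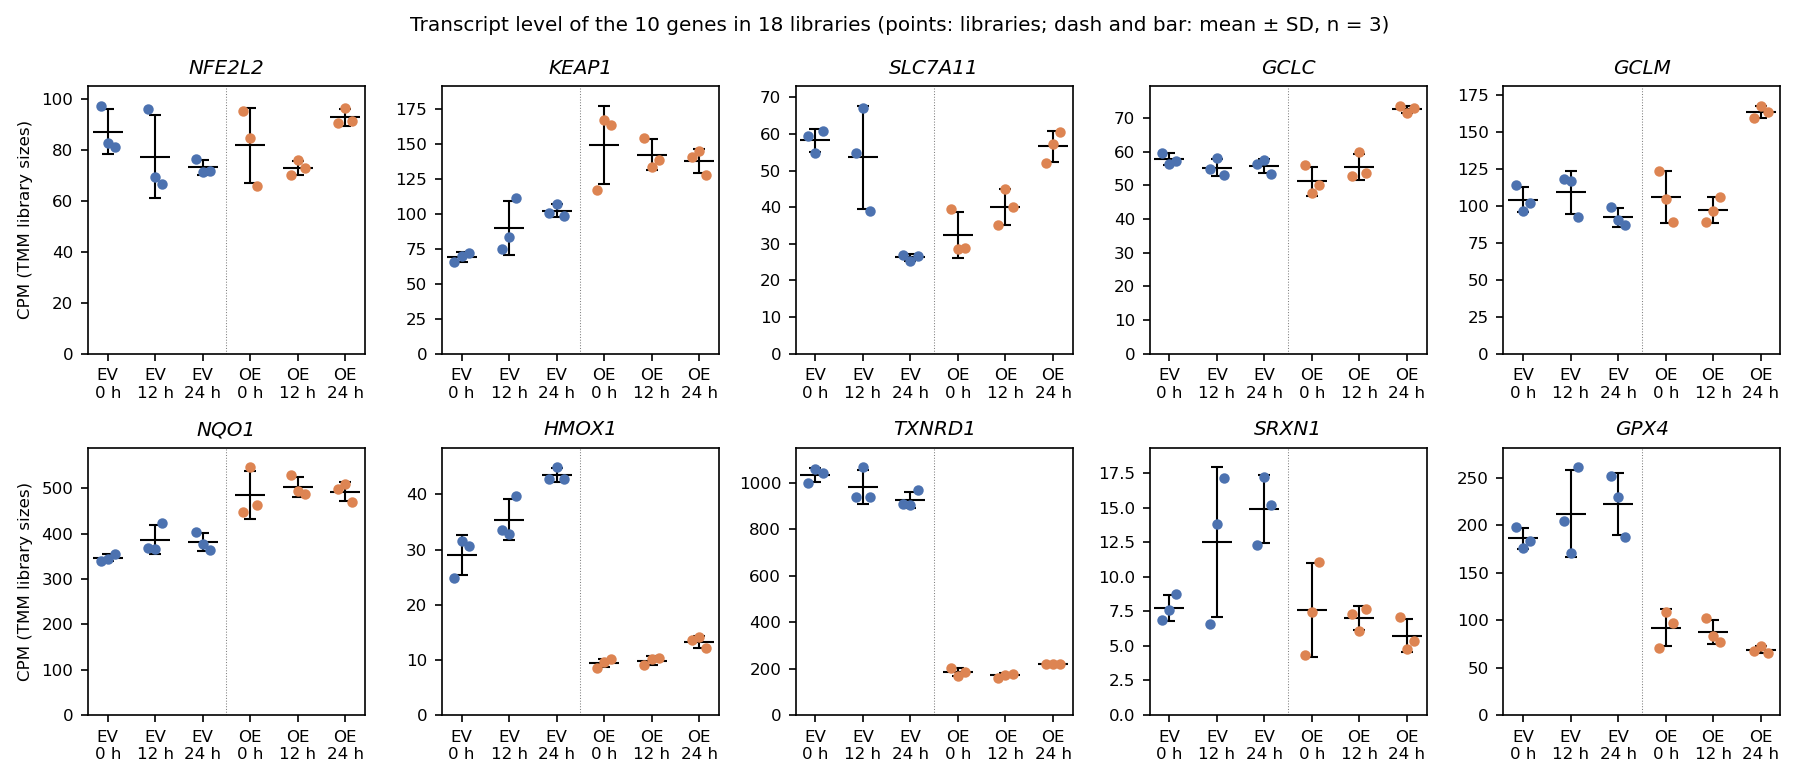
CPM of each of the 10 genes (vertical axis, from 0, scale differs by panel) in the 6 conditions (horizontal axis). Points are the 18 libraries, dashes and bars the mean ± SD of 3 libraries. SLC7A11 was lower at 24 h than at 0 h in EV and higher in OE, and TXNRD1, HMOX1 and GPX4 were lower in OE than in EV at every time.

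The transcript of NFE2L2 itself (chr2:177227595-177392697, minus strand; all gene positions are on GRCh38 from GENCODE release 29) was not called in either line. It held 97.5, 83.0 and 81.4 CPM in EV at 0 h and 76.6, 71.3 and 71.8 CPM at 24 h, the log2 fold change being -0.25 (SE 0.13, adjusted p = 0.201). In OE it held 95.3, 84.7 and 65.9 CPM at 0 h and 90.6, 96.6 and 91.5 CPM at 24 h (log2 fold change 0.18, SE 0.13, adjusted p = 0.444). All EV libraries at 24 h lay just under those at 0 h, while the OE libraries of the 2 times overlapped. NFE2L2 shares 17.6% of its exonic bases with AC019080.1 on the same strand, a gene with 655 counts in all libraries together against 23568 for NFE2L2.

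KEAP1 (chr19:10486120-10503741, minus strand), the adaptor that brings NRF2 to a ubiquitin ligase, rose in EV. Its level was 65.3, 69.8 and 71.9 CPM at 0 h, 74.7, 83.2 and 111 CPM after 12 h and 101, 107 and 98.4 CPM after 24 h. No library at 24 h was as low as any at 0 h, and the 12 h libraries were the most spread. The change at 24 h was 1.48-fold (log2 0.57, SE 0.14, adjusted p = 0.0123), and it was not called without EV 0 h replicate 1 (adjusted p = 0.0711) or without EV 24 h replicate 2 (adjusted p = 0.0593). In OE, KEAP1 held 117, 167 and 163 CPM at 0 h and 141, 145 and 128 CPM at 24 h, which overlapped (log2 fold change -0.12, SE 0.13). The difference between the 2 effects, OE minus EV, was -0.68 on the log2 scale (SE 0.19, adjusted p = 0.0173), and it was lost without 1 of 3 libraries in turn: EV 0 h replicate 1, OE 0 h replicate 2 or OE 24 h replicate 3 (adjusted p = 0.0519 to 0.0557).

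SLC7A11 (chr4:138164097-138242349, minus strand), the cystine and glutamate exchanger subunit that supplies cysteine for glutathione, moved in opposite directions in the lines. In EV it held 59.5, 54.7 and 60.8 CPM at 0 h, 54.8, 67.1 and 39.0 CPM after 12 h, and 27.0, 25.2 and 26.7 CPM after 24 h. All 3 EV libraries at 24 h lay below every other EV library. In OE it held 39.6, 28.7 and 28.7 CPM at 0 h, 35.0, 45.0 and 40.2 CPM after 12 h, and 52.1, 57.3 and 60.5 CPM after 24 h. The 3 OE libraries at 24 h lay above every other OE library. The gene fell to 0.451-fold in EV (log2 -1.15, SE 0.16, adjusted p = 0.000485) and rose 1.75-fold in OE (log2 0.81, SE 0.16, adjusted p = 0.00268). The difference of the effects was 1.96 on the log2 scale (SE 0.22, adjusted p = 2.71e-05) and was called in each of the 12 fits that left out 1 library (1.88 to 2.13). SLC7A11-AS1, an antisense transcript that shares 865 exonic bases with SLC7A11, had 33, 26 and 19 counts in EV at 0 h and 3, 10 and 12 counts at 24 h (log2 fold change -1.69, adjusted p = 0.0343). In OE this transcript had 11, 5 and 3 counts at 0 h and 11, 10 and 19 counts at 24 h (log2 fold change 1.05, adjusted p = 0.279). The difference of its effects, OE minus EV, was 2.73 (adjusted p = 0.017), of the same sign as that of SLC7A11. SLC7A11-AS1 held 227 counts in all libraries together against 12928 for SLC7A11. The strand setting of the counting was not given in the sources used here, so reads of the pair may not be separated.

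GCLC (chr6:53497341-53616970, minus strand), the catalytic subunit of glutamate-cysteine ligase, and GCLM (chr1:93885205-93909456, minus strand), its modifier subunit, rose in OE at 24 h. GCLC held 56.0, 47.6 and 50.1 CPM in OE at 0 h and 73.5, 71.5 and 72.9 CPM at 24 h, a 1.42-fold rise (log2 0.50, SE 0.09, adjusted p = 0.00119). GCLM held 124, 105 and 89.1 CPM in OE at 0 h and 159, 168 and 164 CPM at 24 h, a 1.54-fold rise (log2 0.63, SE 0.12, adjusted p = 0.00192). For both subunits the OE libraries at 24 h lay above all 15 others of either line. In EV, GCLC was at 59.7, 56.5 and 57.4 CPM at 0 h and at 56.3, 57.6 and 53.5 CPM at 24 h. GCLM was at 114, 96.8 and 102 CPM in EV at 0 h and at 99.1, 90.1 and 87.3 CPM at 24 h. The EV libraries of both times overlapped for both genes, with log2 fold changes of -0.05 (SE 0.09) for GCLC and -0.18 (SE 0.12) for GCLM. The difference of the effects was 0.56 for GCLC (SE 0.13, adjusted p = 0.00584) and 0.80 for GCLM (SE 0.17, adjusted p = 0.00336) on the log2 scale, and both were called in each of the 12 fits that left out 1 library. GCLM and KEAP1 hold the same 9 letters in the promoter match shown above, and at 24 h GCLM was called in OE and KEAP1 in EV.

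HMOX1 (chr22:35380361-35394214, plus strand), haem oxygenase 1, which opens the haem ring and frees its iron, was the 1 gene of the 10 that rose in both lines. It held 24.9, 31.5 and 30.7 CPM in EV at 0 h and 42.7, 44.9 and 42.8 CPM at 24 h. The OE libraries held 8.56, 9.61 and 10.1 CPM at 0 h and 13.6, 14.1 and 12.1 CPM at 24 h. In each line the times did not overlap, and every OE library lay below every EV library. The rises were 1.5-fold in EV (log2 0.58, SE 0.12, adjusted p = 0.00538) and 1.41-fold in OE (log2 0.50, SE 0.13, adjusted p = 0.0206). The difference between them was -0.09 (SE 0.17, adjusted p = 0.810). The call in EV was lost without EV 0 h replicate 1 (adjusted p = 0.0502). That in OE was lost without OE 0 h replicate 2, OE 24 h replicate 1 or OE 24 h replicate 2 (adjusted p = 0.0584 to 0.0905).

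NQO1 (chr16:69706996-69726951, minus strand), a quinone reductase often used as an NRF2 readout, was not called at 24 h in either line. It held 340, 345 and 355 CPM in EV at 0 h and 404, 378 and 363 CPM at 24 h, so the times did not overlap (log2 fold change 0.14, SE 0.09, adjusted p = 0.308). Levels in OE were 448, 546 and 462 CPM at 0 h and 498, 510.1 and 470.2 CPM at 24 h, which overlapped (log2 fold change 0.02, SE 0.09). The exons of NQO1 share 575 bases with the antisense gene AC092115.2.

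TXNRD1 (chr12:104215779-104350305, plus strand), the cytosolic thioredoxin reductase, and SRXN1 (chr20:646615-653370, minus strand), sulfiredoxin, which restores overoxidised peroxiredoxins, serve the thiol branch. TXNRD1 held 999, 1057 and 1042 CPM in EV at 0 h and 910.0, 902 and 967 CPM at 24 h (log2 fold change -0.16, SE 0.09, adjusted p = 0.222). In OE it held 203, 167 and 187 CPM at 0 h and 221, 221 and 219 CPM at 24 h (log2 fold change 0.25, SE 0.09, adjusted p = 0.0814). Neither change was called, though in each line the times did not overlap, and the difference of the effects was 0.40 (SE 0.12, adjusted p = 0.0245). That difference was lost without 1 of 5 libraries in turn: EV 0 h replicate 2, EV 24 h replicate 1 or 2, OE 0 h replicate 2 or OE 24 h replicate 3 (adjusted p = 0.0532 to 0.0761).

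SRXN1 had the lowest counts of the 10 genes, 2692 in all libraries together. It held 6.90, 7.60 and 8.76 CPM in EV at 0 h, 6.60, 13.8 and 17.2 CPM at 12 h and 12.3, 17.2 and 15.2 CPM at 24 h. The OE libraries held 4.31, 7.45 and 11.1 CPM at 0 h and 7.07, 4.79 and 5.33 CPM at 24 h. EV libraries at 24 h lay above those at 0 h, while the OE libraries overlapped. The rise in EV was 1.92-fold (log2 0.94, SE 0.29, adjusted p = 0.0354), but it was not called when any 1 of the 6 libraries compared was left out (adjusted p = 0.0588 to 0.138). The difference of the effects was -1.35 (SE 0.42, adjusted p = 0.0284) and was lost without 1 of 7 libraries in turn: EV 0 h replicate 1 or 2, EV 24 h replicate 2, OE 0 h replicate 2 or 3, or OE 24 h replicate 2 or 3 (adjusted p = 0.0510 to 0.114). In GENCODE release 29, 85.0% of the exonic bases of SRXN1 are shared with AL121758.1 on the same strand, so reads there can be split or discarded, and its level is uncertain.

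GPX4 (chr19:1103926-1106791, plus strand), the glutathione peroxidase that acts on membrane lipids, was not called against 0 h in either line. It held 198, 176 and 183 CPM in EV at 0 h and 251, 229 and 187 CPM at 24 h, and the groups overlapped (log2 fold change 0.26, SE 0.16, adjusted p = 0.271). Levels in OE were 70.1, 108 and 97.3 CPM at 0 h and 67.2, 73.0 and 65.8 CPM at 24 h, where 1 untreated library overlapped the treated ones (log2 fold change -0.42, SE 0.16, adjusted p = 0.107). The difference of the effects was -0.68 (SE 0.22, adjusted p = 0.0374). It was lost in 9 of 12 fits that left out 1 library (adjusted p = 0.0562 to 0.119), and was called only without EV 24 h replicate 3, OE 0 h replicate 1 or OE 24 h replicate 2.

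**Figure D2:**
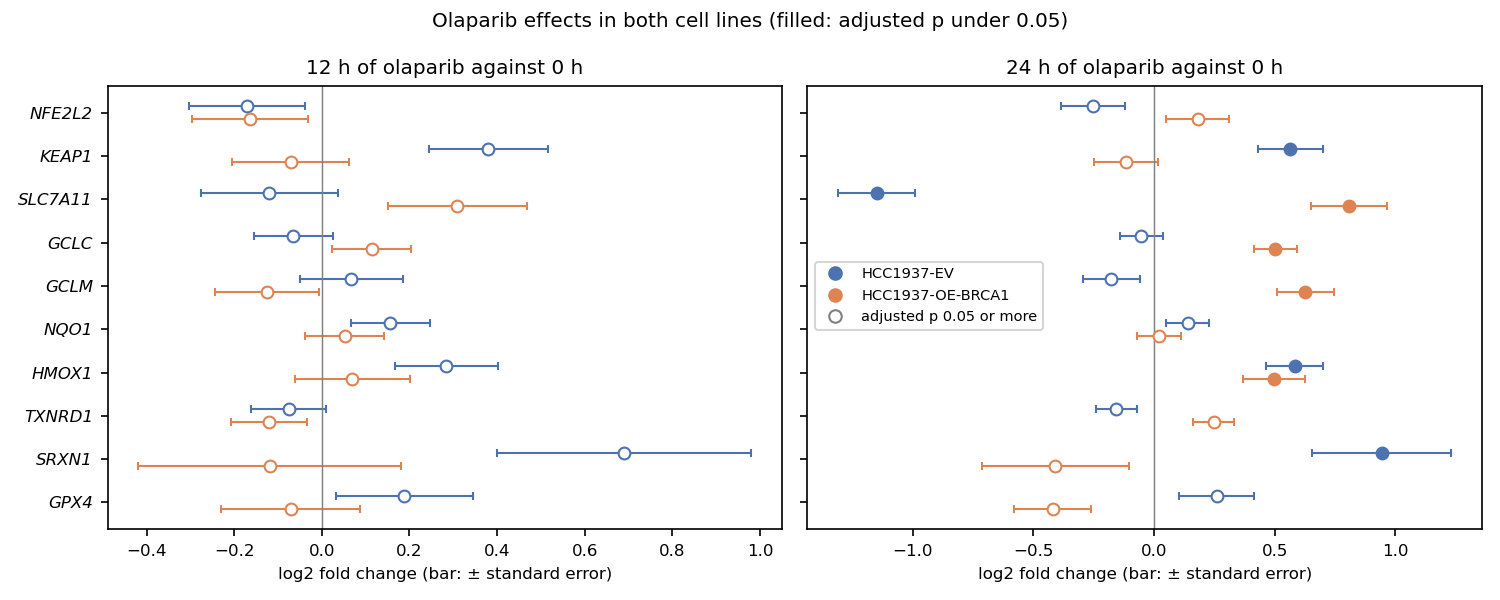
Log2 fold change against 0 h of the same line (horizontal axis) for the 10 genes (vertical axis), at 12 h (left) and 24 h (right). Points are estimates with ± SE, from 3 libraries a condition, and filled points had an adjusted p under 0.05. No point is filled at 12 h, and at 24 h SLC7A11 lies at -1.15 in EV and 0.81 in OE.

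At 12 h none of the 10 genes was called in either line by edgeR or by DESeq2's Wald test. DESeq2's test called 3.3% of all genes that it gave an adjusted p in EV and 4.4% in OE. By edgeR the background in EV was 0.0436% of all tested genes called (0.0273% higher and 0.0164% lower). At an unadjusted p under 0.05 there were 3 of the 10 genes, beside 16.2% of all genes. These were KEAP1 (log2 fold change 0.38, SE 0.14), HMOX1 (0.28, SE 0.12) and SRXN1 (0.69, SE 0.29). KEAP1, NQO1 and HMOX1 did not overlap between 12 h and 0 h in EV, nor did 19.7% of all genes. SRXN1 at 12 h was called without EV 12 h replicate 1, the lowest of its group (log2 0.995, adjusted p = 0.0443). In OE the background was 2.31% (1.70% higher and 0.605% lower), and 0 of the 10 genes had an unadjusted p under 0.05 at 12 h, beside 11.7% of all genes. For 0 of the 10 did the OE libraries of 12 h and 0 h lie apart, beside 15.1% of all genes. SLC7A11 in OE was at a log2 fold change of 0.31 (SE 0.16, adjusted p = 0.470) at 12 h.

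The direct test of whether the lines differed in their response found 7 of the 10 genes at 24 h, beside a background of 19.4% of all tested genes (8.16% with the higher effect in OE and 11.2% in EV). This background was 29.2% without OE 0 h replicate 1 and 10.9% to 18.4% without any 1 of the other 11 libraries. SLC7A11, GCLC, GCLM and TXNRD1 had the higher effect in OE, and KEAP1, SRXN1 and GPX4 in EV. At 12 h the test found 0 of the 10, beside a background of 0.518% (0.376% higher in OE and 0.142% in EV). DESeq2's Wald test called 0 as well, beside 3.0% of all genes that it gave an adjusted p. By edgeR 1 of the 10, KEAP1, was at an unadjusted p under 0.05, beside 14.7% of all genes. KEAP1 at 12 h had a difference of -0.45 (SE 0.19, adjusted p = 0.284), which was called without OE 0 h replicate 1 (-0.60, adjusted p = 0.0469).

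The 10 genes differ widely in GC content, and in these libraries the treatment effects of all genes went with it. GC content of the longest transcript was 35.4% for SLC7A11, 37.3% for GCLM, 44.3% for GCLC, 44.8% for TXNRD1, 45.6% for NFE2L2, 46.0% for NQO1, 53.6% for SRXN1, 58.1% for HMOX1, 60.3% for KEAP1 and 62.5% for GPX4. The 4 genes whose 24 h effect was higher in OE lie at 44.8% or less, and the 3 whose effect was higher in EV at 53.6% or more. Over the 14137 tested genes whose mean log2 CPM was above 0 and that had a GC content and length, the log2 fold change followed GC content with a Spearman's rho of 0.53 in EV at 24 h, -0.34 in OE at 24 h and -0.52 for the difference of the effects, a description across genes that share libraries. The rho of single libraries with GC content went with condition. It was -0.55, -0.22 and -0.41 in EV at 0 h and 0.26, 0.58 and 0.40 in EV at 24 h. In OE at 24 h it was -0.29, -0.39 and -0.44. A technical trend of the libraries and a response that follows GC content therefore cannot be told apart, and the offset removes both. With each library's trend on GC content and length offset, the difference of the effects kept its call for SLC7A11 (1.45, SE 0.12, adjusted p = 2.21e-07), GCLM (0.43, SE 0.08, adjusted p = 0.00127), KEAP1 (-0.27, SE 0.08, adjusted p = 0.0329) and SRXN1 (-1.14, SE 0.38, adjusted p = 0.0394). It was not called for GCLC (0.26, SE 0.09, adjusted p = 0.0564), TXNRD1 (0.17, SE 0.09, adjusted p = 0.185) or GPX4 (-0.07, SE 0.15, adjusted p = 0.820). All 8 calls against 0 h at 24 h were kept under this offset. In EV, SLC7A11 was then at -0.82, KEAP1 at 0.27, HMOX1 at 0.30 and SRXN1 at 0.77 (adjusted p = 0.0470 for SRXN1). In OE, SLC7A11 was at 0.62, GCLC at 0.38, GCLM at 0.48 and HMOX1 at 0.60 on the log2 scale. At 12 h in OE, SLC7A11 was called under the offset (0.35, adjusted p = 0.0168).

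**Figure D3:**
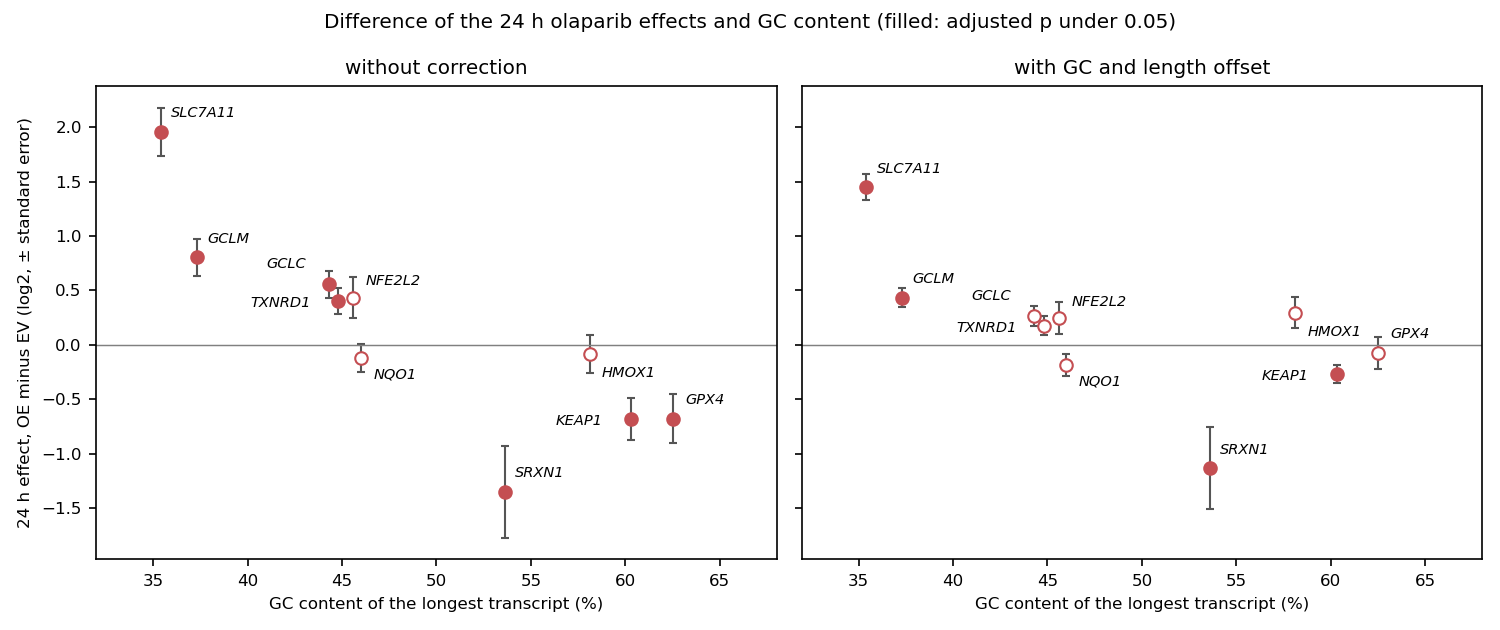
Difference of the 24 h olaparib effects, OE minus EV (vertical axis, log2, ± SE), against GC content of the longest transcript (horizontal axis, %), for the 10 genes. The left panel is without correction and the right panel with each library's trend on GC content and length offset; filled points had an adjusted p under 0.05. SLC7A11 lies at 1.96 on the left and 1.45 on the right, while GPX4 lies at -0.68 and -0.07.

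Between the lines at 0 h, 6 of the 10 genes differed, beside a background of 72.7% of all tested genes (39.4% higher and 33.3% lower in OE). KEAP1 was 2.16-fold higher in OE (log2 1.11, SE 0.14, adjusted p = 2.76e-07) and NQO1 1.40-fold higher (log2 0.49, SE 0.09, adjusted p = 5.81e-05). SLC7A11 was lower in OE (log2 -0.85, SE 0.16), as were GPX4 (-1.02, SE 0.16), HMOX1 (-1.63, SE 0.13) and TXNRD1 (-2.48, SE 0.09). For these 6 genes and GCLC no library of 1 line reached into the range of the other, and 72.4% of all genes did not overlap. NFE2L2 (-0.09, SE 0.13), GCLC (-0.18, SE 0.09), GCLM (0.02, SE 0.12) and SRXN1 (-0.03, SE 0.30) were not called.

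At 12 h, 7 of the 10 differed between lines (background 72.9%, with 38.8% higher and 34.1% lower in OE) and at 24 h all 10 did (background 73.9%, with 39.9% higher and 34.0% lower). At 12 h 5 of the 10 did not overlap between lines, beside 73.5% of all genes. At 24 h the libraries of the lines did not overlap for any of the 10 genes, and 78.8% of all genes did not overlap. SLC7A11 was at -0.42 (SE 0.16, adjusted p = 0.0207) at 12 h and at 1.11 (SE 0.16, adjusted p = 2.59e-06) at 24 h on the log2 scale, so its sign turned from lower to higher in OE. The call at 12 h was lost without EV 12 h replicate 2 (-0.23, adjusted p = 0.200) or OE 12 h replicate 1 (-0.33, adjusted p = 0.0990). At 24 h, GCLM was 1.77-fold higher in OE (log2 0.83, SE 0.12), GCLC 1.30-fold (0.38, SE 0.09), KEAP1 1.35-fold (0.43, SE 0.13), NQO1 1.29-fold (0.37, SE 0.09) and NFE2L2 1.27-fold (0.34, SE 0.13, adjusted p = 0.0246). The call of NFE2L2 was lost without EV 24 h replicate 2, EV 24 h replicate 3 or OE 24 h replicate 2 (adjusted p = 0.0564 to 0.0659). TXNRD1 (-2.07, SE 0.09), HMOX1 (-1.71, SE 0.12), GPX4 (-1.70, SE 0.16) and SRXN1 (-1.38, SE 0.30) were lower in OE at 24 h. SRXN1 was also lower at 12 h (-0.84, SE 0.29, adjusted p = 0.0146), a call lost without EV 12 h replicate 3 (-0.54, adjusted p = 0.114) or OE 12 h replicate 2 (-0.74, adjusted p = 0.0576).

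**Figure D4:**
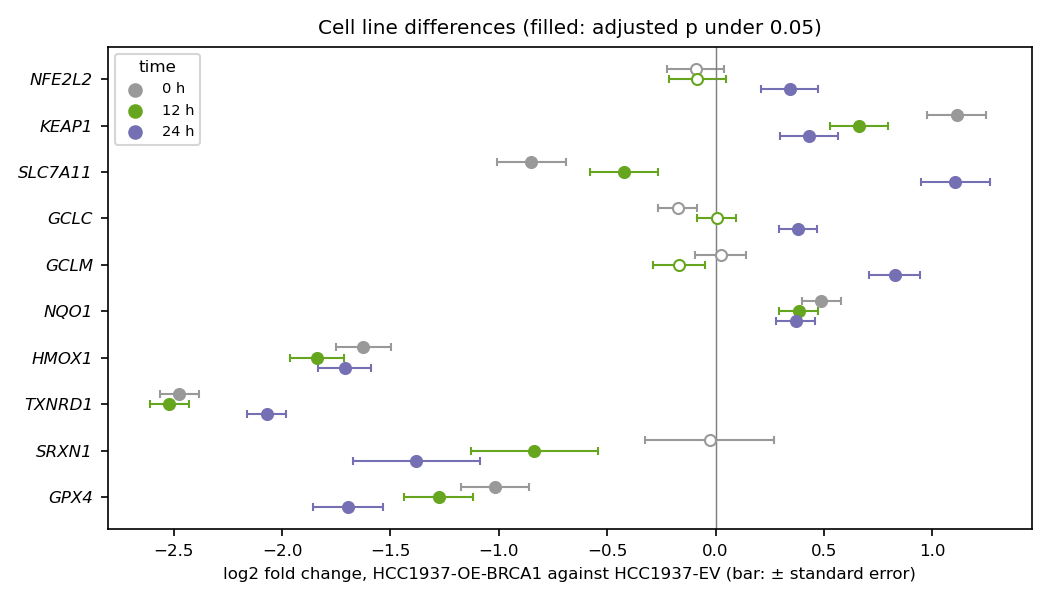
Log2 fold change of OE against EV (horizontal axis, ± SE) for the 10 genes (vertical axis) at 0 h, 12 h and 24 h, 3 libraries a condition; filled points had an adjusted p under 0.05. SLC7A11 moves from -0.85 at 0 h to 1.11 at 24 h, and TXNRD1 stays between -2.52 and -2.07.

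Levels can be compared between genes only per length. In mean CPM per kilobase of exonic sequence at 0 h, EV held the most transcript of TXNRD1 (154 ± 4.44, SD, n = 3), then NQO1 (106 ± 2.38) and GPX4 (92.1 ± 5.65). GCLM (19.2 ± 1.61) and KEAP1 (18.3 ± 0.893) followed within their spread of each other, then NFE2L2 (14.6 ± 1.48) and HMOX1 (12.1 ± 1.5), again within their spread or close to it. GCLC (6.69 ± 0.192), SLC7A11 (6.05 ± 0.331) and SRXN1 (2.87 ± 0.349) were the lowest of the 10. In OE at 0 h the order began with NQO1 (149 ± 16.3), GPX4 (45.5 ± 9.70), KEAP1 (39.7 ± 7.43) and TXNRD1 (27.7 ± 2.69). The spreads of GPX4 and KEAP1 overlapped there. SRXN1 (2.82 ± 1.26), SLC7A11 (3.35 ± 0.651) and HMOX1 (3.92 ± 0.323) were at the low end, within their spread of one another. At 24 h GCLM was at 17.0 ± 1.14 in EV and at 30.2 ± 0.775 in OE, and GCLC at 6.45 ± 0.242 and 8.40 ± 0.119 CPM per kilobase. The coefficient of variation within a condition ran from 0.572% to 44.5% over the 60 pairs of gene and condition, with a median of 7.96%. The highest was SRXN1 in OE at 0 h.

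The wider pathway was followed in 7 lists, which hold 154 genes, 147 of them tested. The counts at 24 h that follow stand beside 8.62% of all tested genes higher and 5.12% lower in EV, and 4.71% higher and 3.55% lower in OE, and with the offset for GC content and length beside 14.4% called in EV and 16.4% in OE. Many of them moved when 1 library was left out, as did the share over all genes. Without EV 0 h replicate 1 the calls over all genes in EV went from 13.7% to 2.45%. In the same fit they went from 14 to 4 among other NRF2 targets, from 12 to 2 in the glutathione list and from 7 to 2 in the thioredoxin group. The calls went from 6 to 1 in ferroptosis and iron handling and from 5 to 1 among ATF4 targets. They went from 2 to 0 in selenoprotein synthesis and from 1 to 0 among regulators. Of 14 NRF2 regulators tested (the CUL3 ligase, BACH and small MAF factors and others), 0 were higher and 1 lower in EV at 24 h, and 1 was higher and 0 lower in OE. The 1 in EV was NFE2L3, a relative of NFE2L2 (5.67 CPM at 0 h and 3.62 CPM at 24 h, log2 fold change -0.65, adjusted p = 0.0392). The 1 in OE was BACH1, a repressor that competes with NRF2 for the same elements (15.7 CPM and 24.7 CPM, log2 0.66, adjusted p = 0.0318). With the offset there were 0 and 2 in EV and 2 and 2 in OE.

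Of 37 other NRF2 targets tested, 10 were higher and 4 lower in EV at 24 h, with a median log2 fold change of 0.21 (0.00 over all genes), and 9 were higher and 2 lower in OE, with a median of 0.20 (0.02 over all genes). As shares of the list these are 27.0% and 10.8% in EV and 24.3% and 5.41% in OE. Leaving out 1 library gave 4 to 13 calls in EV, beside 2.45% to 11.8% of all genes. In OE it gave 9 to 13, beside 3.42% to 17.7%. In EV, ALDH3A1, an aldehyde dehydrogenase, rose from 4.58 to 10.1 CPM (log2 1.14, adjusted p = 0.00325). BLVRB, a biliverdin reductase (log2 0.98), and FTH1, the ferritin heavy chain (log2 0.56), rose too. ABCC4, an efflux transporter, fell from 100 to 68.7 CPM in EV (log2 -0.54, adjusted p = 0.00633), and it was called lower in OE too (log2 -0.49, adjusted p = 0.0129). In OE, the aldo-keto reductases AKR1B10 (6.72 to 13.0 CPM, log2 0.96, adjusted p = 0.0135), AKR1C1 (log2 0.73), AKR1C2 (log2 0.88) and AKR1C3 (log2 0.83) rose. ME1, malic enzyme and a source of NADPH (log2 0.54), and PIR, pirin (log2 0.59), rose as well. PIR was also called higher in EV (log2 0.34, adjusted p = 0.0433). TRIM16, a ubiquitin ligase, fell in OE from 55.1 to 34.4 CPM (log2 -0.68, adjusted p = 0.00106), and it rose in EV (log2 0.50). AKR1C1 and AKR1C2 are near-identical in sequence, and reads can be split between them, so each alone is uncertain. With the offset for GC content and length the counts were 8 higher and 4 lower in EV, and 15 higher and 2 lower in OE.

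Of 35 genes of glutathione synthesis, uptake and use tested, 10 were higher and 2 lower in EV at 24 h (median log2 0.25), and 3 were higher and 1 lower in OE (median 0.04). That is 28.6% and 5.71% of the list in EV, and 8.57% and 2.86% in OE. The calls in EV were 2 without EV 0 h replicate 1, EV 0 h replicate 3 or EV 24 h replicate 2, beside 2.45%, 5.14% and 3.76% of all genes. Those in OE were 2 without OE 24 h replicate 3, beside 3.42%. In EV they included GPX1, a peroxidase (log2 0.72), GLRX5, a mitochondrial glutaredoxin (log2 0.68), and HAGH, a glyoxalase (log2 0.69), as higher genes, and MGST1, a microsomal transferase (log2 -0.33), as a lower one. In OE, GLRX, the cytosolic glutaredoxin, rose from 0.869 to 1.99 CPM (log2 1.19, adjusted p = 0.00371) and GPX2, a peroxidase of epithelia, from 6.65 to 13.7 CPM (log2 1.04, adjusted p = 0.00461). GLRX was also called higher in EV (log2 0.78, adjusted p = 0.00482). GLRX5 fell in OE from 80.1 to 53.2 CPM (log2 -0.59, adjusted p = 0.0121). With the offset, 10 were higher and 3 lower in EV, and 3 were higher and 5 lower in OE.

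Of 23 genes of the thioredoxin, peroxiredoxin, superoxide dismutase and catalase group, 7 were higher and 0 lower in EV at 24 h, and 1 was higher and 0 lower in OE. In EV, PRDX5, a peroxiredoxin, rose from 79.5 to 176 CPM (log2 1.15, adjusted p = 0.00762), a call lost without EV 0 h replicate 1. TXNDC17, a thioredoxin-related protein, rose from 27.3 to 59.0 CPM (log2 1.11, adjusted p = 0.00999), a call lost without EV 0 h replicate 1 or EV 24 h replicate 1. The 1 in OE was CAT, catalase (log2 0.45, adjusted p = 0.00786). The median log2 fold change of the group was 0.19 in EV and -0.09 in OE. With the offset 9 were higher and 1 lower in EV, and 4 were higher and 2 lower in OE. In OE 7 of the group were called without OE 0 h replicate 1, 3 higher and 4 lower, beside 17.7% of all genes. Without OE 0 h replicate 2 there were 0, beside 3.91% of all genes.

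Of 9 genes of selenoprotein synthesis, on which GPX4 and TXNRD1 depend, 1 was higher and 1 lower in EV at 24 h, and 1 was higher and 3 lower in OE, and the offset left these counts as they were. In OE 1 was called without OE 0 h replicate 2 or 3 or OE 24 h replicate 2 or 3, beside 3.42% to 4.86% of all genes. SEPHS1, a paralogue of the selenophosphate synthetase, fell in OE at 24 h (log2 -0.43, adjusted p = 0.00364). Of 22 genes of ferroptosis and iron handling, 4 were higher and 2 lower in EV, and 2 were higher and 0 lower in OE. In EV, ACSL4, which loads polyunsaturated fatty acids into phospholipids, fell (log2 -0.46, adjusted p = 0.0220). With the offset the counts were 5 and 2 in EV and 3 and 2 in OE. In OE none was called without OE 0 h replicate 2, OE 24 h replicate 1 or OE 24 h replicate 3, beside 3.4% to 4.3% of all genes.

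SLC7A11 is also a target of ATF4, the factor of the integrated stress response. Of 18 ATF4 targets tested, 1 was higher and 4 lower in EV at 24 h, and 4 were higher and 1 lower in OE. With the offset the counts were 0 and 6 in EV and 5 and 3 in OE. DDIT3, a transcription factor of the same response, fell in EV from 15.98 to 10.1 CPM (log2 -0.66, adjusted p = 0.0355), and this call was lost without any of the 3 EV 0 h libraries or without EV 24 h replicate 2 or 3. In OE, ATF3 rose (log2 0.90, adjusted p = 1.15e-05), NUPR1 rose (log2 0.76, adjusted p = 0.00632), and SLC7A5, an amino acid transporter, fell from 2736 to 1868 CPM (log2 -0.55, adjusted p = 0.000810). The difference of the 24 h effects was higher in OE for 5 of the 18 and higher in EV for 2, beside 8.16% and 11.2% of all genes. With the GC and length offset these were 11 and 2, beside 1335 and 2018 of 18335 genes. Without the offset the 5 were ASNS (1.09), VLDLR (1.03), ATF3 (0.92), DDIT3 (0.89) and NUPR1 (0.82), with adjusted p = 0.000457 to 0.0349. The 2 higher in EV were SLC7A5 (-0.68, adjusted p = 0.00260) and SLC3A2 (-0.87, adjusted p = 0.00896). SLC3A2 is also in the list of glutathione synthesis, uptake and use, and its difference was opposite in sign to that of SLC7A11 (1.96).

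For the difference of the 24 h effects, OE minus EV, the other lists gave 1 positive and 1 negative call among NRF2 regulators, 5 and 4 among other NRF2 targets, 3 and 7 in the glutathione list, 3 and 7 in the thioredoxin group, 3 and 2 in selenoprotein synthesis, and 4 and 3 in ferroptosis and iron handling, beside 8.16% positive and 11.2% negative over all genes. With the offset these became 4 and 2, 10 and 4, 4 and 8, 3 and 8, 1 and 2, and 3 and 5, in the same order, beside 18.3% of all genes called. The calls in ferroptosis and iron handling went from 7 to 2 without EV 0 h replicate 1, beside 11.6% of all genes. They went to 11 without OE 0 h replicate 1, beside 29.2%. At 12 h in EV, 1 of the 147 genes tested from the 7 lists was called, beside 0.0436% of all genes. It was CEBPB, an ATF4 target (84.5 to 127 CPM, log2 0.59, adjusted p = 0.0408). The lists held no call with the offset, where 0.796% of all genes were called. Nor did they when any 1 of the libraries compared other than EV 12 h replicate 1 was left out. Without EV 12 h replicate 1, 5 genes of the thioredoxin group, 3 other NRF2 targets and 0 to 2 of each other list were called, beside 2.45% of all genes. At 12 h in OE 4 of the 147 were called, beside 2.31% of all genes. GLRX (log2 1.15, adjusted p = 0.00931), ATF3 (0.85, adjusted p = 3.85e-05) and AKR1C1 (0.58, adjusted p = 0.00833) were higher and SEPHS1 (-0.35, adjusted p = 0.0321) lower. With the offset for GC content and length, the calls in OE at 12 h were 6 higher and 0 lower among ATF4 targets, 4 and 2 among other NRF2 targets, 2 and 1 in the glutathione list, 2 and 0 in ferroptosis and iron handling and 0 and 1 in selenoprotein synthesis, beside 6.16% of all genes. For the difference of the 12 h effects, DESeq2's Wald test called 4 of the 147 list genes, beside 3.0% of all genes that it gave an adjusted p. The edgeR test called 0, beside 0.518% of all genes, with 32 at an unadjusted p under 0.05 (21.8%, beside 14.7% of all genes). With the offset there were 3 positive and 0 negative calls among ATF4 targets, 1 and 2 in the glutathione list, 1 and 1 among other NRF2 targets and 1 and 0 in ferroptosis and iron handling, beside 3.30% of all genes. Without OE 0 h replicate 1 there were 3 calls in the glutathione list, 2 in the thioredoxin group, 1 among regulators and 1 among ATF4 targets, beside 4.10%.

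Between the lines at 0 h, 39.4% of all tested genes were higher and 33.3% lower in OE, and 120 of the 147 list genes differed beside the 72.7% of all genes. Of the 37 other NRF2 targets, 15 were higher and 16 lower in OE, and of the 35 glutathione genes 14 were higher and 17 lower. AKR1C1 was at 178 CPM in OE and 0.0824 CPM in EV, and AKR1C2 at 98.0 CPM in OE with no count in the EV libraries at 0 h. MSRA, a methionine sulfoxide reductase, was at 3.18 CPM in OE with no count in EV. ABCC2, an exporter of glutathione conjugates, was at 3.46 CPM in OE and 313 CPM in EV (log2 -6.50), MSRB3 at 0.847 and 73.7 CPM (log2 -6.43), and CBS, which starts transsulfuration, at 1.27 and 57.9 CPM (log2 -5.51). Of the 14 regulators 5 were higher and 4 lower, of the 23 genes of the thioredoxin group 6 and 10, of the 9 selenoprotein synthesis genes 3 and 4, of the 22 ferroptosis and iron genes 7 and 13, and of the 18 ATF4 targets 2 and 13.

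Across the 18 libraries, with the mean of each line subtracted, the 10 genes varied in different directions. The highest Pearson correlations of log2 CPM among them were KEAP1 with SRXN1 (0.87), GCLC with GCLM (0.83) and GCLM with TXNRD1 (0.81), and the lowest were NFE2L2 with SRXN1 (-0.88), TXNRD1 with GPX4 (-0.83) and KEAP1 with SLC7A11 (-0.76). These are descriptions over libraries that share conditions and a GC trend. The correlation of a gene with its library's GC trend over the same 18 libraries was -0.80 for SLC7A11, -0.79 for GCLM, -0.87 for NFE2L2, 0.86 for KEAP1 and 0.88 for SRXN1. For HMOX1 it was 0.28. Among 10006 genes (10007 for SRXN1) with a mean of at least 10 CPM, the gene most like each was NOL11 for NFE2L2 (0.97), GPAA1 for KEAP1 (0.98), HSPA13 for SLC7A11 (0.94), TFDP2 for GCLC (0.93), RRM1 for GCLM (0.95, followed by the NRF2 target ME1 at 0.95), PSME2 for NQO1 (0.92), WIPI1 for HMOX1 (0.89), ABCC2 for TXNRD1 (0.95), SSH3 for SRXN1 (0.95) and RPS4X for GPX4 (0.97).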

How the data were processed

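RNA-seq counts of 18 libraries were analysed, with cell line, time and replicate number taken from the sample titles. After TRIzol extraction and library preparation with a NEBNext Ultra II kit, the authors deposited unnormalized whole-number counts of reads per gene, in 1 joint table and in 18 tables of single libraries, which were checked to hold the same values. The submitters' processing notes name HISAT2, featureCounts, DESeq2 and the build GRCh38 (hg38). Versions, the annotation and the strand setting were not given in the sources used here. Reads over overlapping genes or near-identical copies can be split or dropped at that step.

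Versioned Ensembl identifiers were matched without the version to symbols (34966 of 35044) and to GENCODE release 29 for positions, exonic length and GC content (33888). Rows of the 10 genes were tested within all genes that passed edgeR's filterByExpr, with TMM library sizes and edgeR's quasi-likelihood test (edgeR 4.0.16, R 4.3.3), 1 mean per condition over all 18 libraries. P-values were adjusted by Benjamini-Hochberg over 18335 genes and called under 0.05. The biological coefficient of variation was 12.9%, and a library had at least 15081973 counts. SE was derived as the absolute log2 fold change divided by the square root of the F statistic of the quasi-likelihood test. The labels do not say that replicates came from separate cultures, so p-values measure the spread between these libraries. No pair of replicates agreed within counting noise. In a table of 3 against 3 libraries a 2-sided permutation test of a single gene cannot go below p = 0.1, so none was used.

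Alternatives were DESeq2 size factors, the Wald test of DESeq2 1.42.0, all genes without the filter, only the conditions compared, the replicate number as a block, an offset for each library's smooth trend on GC content and length (mgcv 1.9.3, 18076 genes), the block with the offset, and leaving out each library in turn. The model was tested on simulated data with known fold changes. The simulated counts had the same dispersion for every gene and no trend on GC content or length, so they do not show how such a trend moves the calls. List genes named were, in each treatment comparison and between the lines at 0 h, up to 3 called genes of largest rise and up to 3 of largest fall, with a mean of at least 1 CPM and libraries that did not overlap. Other list genes were named after their values were seen. Correlations used log2 CPM with a prior count of 2. The 10 genes and the lists were chosen with earlier results of these data known.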

Additional observations from a re-analysis of the deposited data

Results flagged for a closer look

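For 7 genes the 24 h olaparib effect differed between the lines by the test of the difference itself (edgeR's quasi-likelihood test, OE minus EV, log2 scale, 3 libraries a condition, adjusted over all genes). The same test called 19.4% of all tested genes. The difference was 1.957 for SLC7A11, which was lower at 24 h in 3 of 3 EV libraries and higher in 3 of 3 OE libraries than at 0 h. It was 0.8036 for GCLM, 0.5553 for GCLC and 0.4041 for TXNRD1, whose OE libraries at 24 h all lay above those at 0 h. It was -0.681 for KEAP1 and -1.353 for SRXN1, whose EV libraries at 24 h all lay above those at 0 h, and -0.6784 for GPX4, whose libraries of the 2 times overlapped in both lines. No test for an outlying library was run on conditions of 3. OE 0 h replicate 1 and EV 12 h replicate 3 differed from their fellows in the GC trend. Without OE 0 h replicate 1 all 7 of these genes were called, beside 29.2% of all genes. Of the 12 fits that left out 1 library, SLC7A11, GCLC and GCLM were called in all 12. KEAP1 was called in 9 of them, TXNRD1 in 7, SRXN1 in 5 and GPX4 in 3. With the GC and length offset GCLC, TXNRD1 and GPX4 were not called.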

How the results depend on the processing

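The count of the 10 genes called stayed within 1.5 times under DESeq2 size factors, DESeq2's Wald test and the fit on only the conditions compared, in all 9 comparisons. A gene not called before or after counts as unchanged here even if its sign turned. For 12 h in EV the count went from 0 to 1 without the filter (SRXN1, 0.69, adjusted p = 0.0191), and for 12 h in OE from 0 to 1 with the GC and length offset, alone or with the block. For the difference of 12 h effects it went from 0 to 1 with the offset (KEAP1, -0.31, adjusted p = 0.0468), and for the difference of 24 h effects from 7 to 4 with the offset, alone or with the block. Leaving out 1 library gave 0 to 1 calls at 12 h in EV, 1 to 3 at 24 h in EV (1 without EV 0 h replicate 1, 2 without EV 24 h replicate 2), 0 at 12 h and 3 to 6 at 24 h in OE. It gave 6 to 7, 6 to 7 and 9 to 10 between the lines at 0 h, 12 h and 24 h, 0 to 1 for the difference at 12 h and 3 to 8 for that at 24 h. The low values there were 3 without OE 0 h replicate 2 or OE 24 h replicate 3, and 4 without EV 0 h replicate 1, EV 0 h replicate 2 or EV 24 h replicate 2. Fewer libraries enter these fits.

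Over 18 pairs of the same replicate number within a line, the correlation of deviations ran from -0.37 to 0.23, and 6 were over 0.1. Between the lines it ran from -0.24 (EV 12 h with OE 0 h, replicate 2) to 0.47 (the same conditions, replicate 1). The libraries share a GC trend, so these values cannot show whether replicate numbers pair the libraries. With the replicate block the counts were 0, 4, 0 and 4 for 12 h and 24 h in EV and in OE. GPX4 alone among the 10 genes lost a call, in the difference of 24 h effects (-0.68, adjusted p = 0.0609).

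Single calls also moved. HMOX1 in OE at 24 h was not called without the filter (adjusted p = 0.0791) or on only the conditions compared (adjusted p = 0.0929), nor in EV with block and offset together (adjusted p = 0.0539). The differences of 24 h effects of GCLC (adjusted p = 0.0563) and TXNRD1 (adjusted p = 0.144) were not called without the filter. At 24 h against 0 h, DESeq2 called TXNRD1 in OE (0.24, adjusted p = 0.0220), and the fit without the filter called GPX4 in OE (-0.47, adjusted p = 0.00350). Calls on only the conditions compared included NFE2L2 (-0.26, adjusted p = 0.0267) and GPX4 (0.26, adjusted p = 0.0426) in EV at 24 h, and lost SLC7A11 between the lines at 12 h (adjusted p = 0.0623). With the offset GCLM was called between the lines at 0 h (0.15, adjusted p = 0.0242). The cause of these moves was not tested.

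The background counts over all genes moved more. For 12 h in EV, 8 genes were called, against 352 with DESeq2's test, 818 without the filter, 146 with the offset, 38 with block and offset, 1 with the block and 0 on only the conditions compared. For 12 h in OE, 423 became 698 with DESeq2's test, 1130 with the offset and 1101 with block and offset. For 24 h in EV, 2520 became 5173 on only the conditions compared, and for 24 h in OE 1515 became 809 there, 3003 with the offset and 2840 with block and offset. For the difference of 12 h effects, 95 became 399 with DESeq2's test, 644 without the filter, 605 with the offset, 511 with block and offset and 37 on only the conditions compared. Other counts over all genes stayed within 1.5 times under these settings. Leaving out 1 library gave 1 to 462 at 12 h in EV (462 without EV 12 h replicate 1), 462 to 2227 at 24 h in EV (462 without EV 0 h replicate 1), 257 to 468 at 12 h in OE, and 644 to 3329 at 24 h in OE (3329 without OE 0 h replicate 1, 644 without OE 24 h replicate 3). It gave 49 to 772 for the difference of 12 h effects and 2062 to 5502 for that of 24 h effects, both highest without OE 0 h replicate 1.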
